A study of Mus musculus with 2 samples.

Results

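The genes Rbm20, Rbm24, Rbfox1, Rbfox2, Mbnl1, Mbnl2, Celf1, Celf2, Qk and Ptbp1, 10 in all, encode RNA-binding regulators of muscle splicing and were examined in the embryonic mouse heart. The rule takes them by name and uses no measured value, although the set was drawn up with earlier results of these data known. All 10 were found by gene identifier among the 43346 mouse genes of the deposited tables. Total RNA of hearts of B6NCrl embryos at embryonic day 11.5 had been sequenced in 2 libraries, called replicate 1 and replicate 2, each made from its own pool of male and female embryos. The pool of replicate 1 held 109 embryos and no number was given for that of replicate 2. Both biosamples carry the same donor identifier. RNA extracted with the mirVana kit entered each library at 10 ng with a size range above 200, spike-in RNAs were added, and a SmartSeq protocol was attached. There was 1 group, with no treatment and no mutant allele in the labels, so no comparison between conditions was possible and no p-value is given.

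Splicing regulators of this kind bind short motifs in and around alternative exons, and whether they bind upstream or downstream of an exon often decides whether it is kept or skipped. In the heart, CELF proteins are known for promoting fetal splicing patterns and MBNL proteins for promoting adult ones, RBM20 and RBM24 act on sarcomere transcripts such as titin, and PTBP1 represses many muscle and neuronal exons. Several of these genes are also spliced under their own control or that of a relative, so their own optional exons were examined together with their levels.

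The optional segments that the results below turn on are shown 5′ to 3′ in the direction of transcription, from the GENCODE M21 transcript sequences on GRCm38, the same assembly as mm10. Capitals mark the optional bases, and lower case marks the bases beside them in the transcript. Some of the lower-case bases belong to exons that are themselves optional, namely the 154-base and 95-base exons of Mbnl1. For the exons that are skipped or kept whole, the 15 bases on either side belong to the neighbouring exons of the spliced RNA. The 54-base exon of Mbnl1 lies at chr3:60614683-60614736 on the plus strand, is coding, and is known for carrying part of the nuclear localization signal. The 36-base coding exon of Mbnl1 lies at chr3:60621423-60621458. The 78-base exon of Ptbp1 at chr10:79860117-79860194 encodes part of the linker between RNA-binding domains, and its 34-base exon lies at chr10:79862014-79862047. The 34-base exon of Ptbp2 at chr3:119724612-119724645, on the minus strand, is a known target of repression by PTBP1. The 30-base exon of Tnnt2 at chr1:135843785-135843814 is the fetal exon of cardiac troponin T, on which CELF and MBNL proteins are known to act in opposite ways.
Mbnl1 54-base exon: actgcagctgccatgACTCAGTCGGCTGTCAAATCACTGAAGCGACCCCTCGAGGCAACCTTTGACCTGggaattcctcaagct
Mbnl1 36-base exon: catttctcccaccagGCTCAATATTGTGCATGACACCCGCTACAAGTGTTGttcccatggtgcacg
Ptbp1 78-base exon: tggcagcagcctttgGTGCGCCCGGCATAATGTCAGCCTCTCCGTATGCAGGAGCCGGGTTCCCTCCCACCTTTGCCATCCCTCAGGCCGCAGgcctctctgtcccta
Ptbp1 34-base exon: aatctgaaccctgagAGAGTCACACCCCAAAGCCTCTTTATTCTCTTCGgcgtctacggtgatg
Ptbp2 34-base exon: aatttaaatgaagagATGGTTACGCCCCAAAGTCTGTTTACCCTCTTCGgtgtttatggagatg
Tnnt2 30-base exon: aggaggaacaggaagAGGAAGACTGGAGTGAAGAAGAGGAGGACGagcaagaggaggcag

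In the CELF genes the options are mostly shifted exon boundaries rather than skipped exons. The 76-base exon of Celf1 (chr2:91006620-91006695, plus strand) has a shorter form without its first 12 bases, and the 132-base exon of Celf2 (chr2:6560659-6560790, minus strand) has a shorter form without its last 12 bases.
Celf1 76-base exon: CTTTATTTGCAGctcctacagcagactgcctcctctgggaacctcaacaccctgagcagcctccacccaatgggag
Celf2 132-base exon: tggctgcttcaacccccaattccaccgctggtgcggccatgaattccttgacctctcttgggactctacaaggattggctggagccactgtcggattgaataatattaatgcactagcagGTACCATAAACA

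Levels are given as TPM, a length-corrected abundance that adds up to the same total in each library. In both libraries all 10 genes reached at least 1 TPM, against 56.4% of 21474 protein-coding genes, and 9 of 10 reached at least 10 TPM, against 34.5%. Rbfox1 was the exception. The median level of the 10 genes was 41.0 TPM, and that of all protein-coding genes 2.96 TPM. The genes were chosen for their known role in muscle, so the difference between these medians describes the choice and was not tested. In tissue RNA, a low level from fewer cells of a type and from less RNA per cell cannot be told apart.

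**Figure D1:**
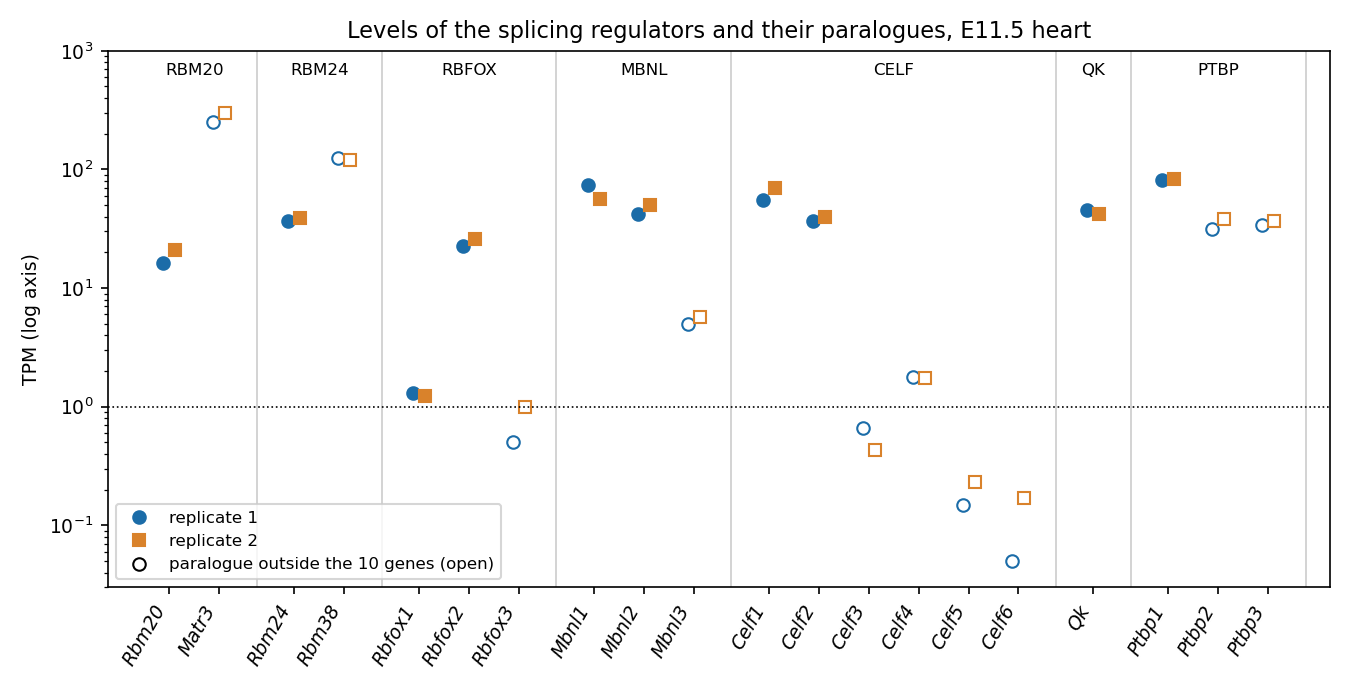
Level of each splicing regulator (filled) and of its relatives outside the set of 10 (open) in TPM on a log axis, with a circle for replicate 1 and a square for replicate 2; the dotted line is at 1 TPM. Ptbp1 was highest of the 10 at 82.1 and 83.2 TPM, and Rbfox1 lowest at 1.30 and 1.22 TPM.

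The 2 RBM proteins act mainly on genes of the sarcomere and of calcium handling. Rbm20 (ENSMUSG00000043639.10, chr19:53677306-53867080, plus strand), known for its control of titin splicing and its mutation in dilated cardiomyopathy, stood at 16.2 TPM in replicate 1 and 20.8 TPM in replicate 2, a mean of 18.5 ± 3.27 (SD, n = 2). Rbm24 (ENSMUSG00000038132.5, chr13:46418434-46431095, plus strand), which promotes inclusion of muscle exons and is needed for sarcomere assembly in the embryonic heart, stood at 37.0 and 39.1 TPM, a mean of 38.0 ± 1.55. Rbm24 was higher than Rbm20 in both libraries, by 1.19 and 0.91 on the log2 scale, a mean of 1.05 ± 0.197 or 2.07-fold, and the library values of the genes did not overlap. With protein-coding transcripts alone the difference was 1.58, and with expected counts that are not corrected for length it was 0.32.

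Relatives of the RBM genes were higher still. Rbm38, which shares its RNA-binding domain type with Rbm24 and is known from both muscle and red cell differentiation, stood at 124 and 119 TPM. Rbm24 was lower than Rbm38 by -1.75 and -1.61 on the log2 scale of TPM, a mean of -1.68 ± 0.101, and their library values did not overlap. Embryonic globins and other erythroid markers were abundant in these hearts (5 of 5 above 10 TPM in each library, with a summed level of 45249 and 38055 TPM), and their part in the level of Rbm38 was not tested. Matr3, a nuclear matrix protein with domains like those of RBM20, stood at 250 and 300 TPM.

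RBFOX proteins share an almost identical RNA-binding domain and set muscle and neuronal splicing. Rbfox2 (ENSMUSG00000033565.12, chr15:77078990-77307004, minus strand), the broadly expressed member with a role in cardiac splicing, stood at 22.6 and 26.0 TPM, a mean of 24.3 ± 2.35. Rbfox1 (ENSMUSG00000008658.11, chr16:5885355-7411526, plus strand), the member known from neurons and from adult heart and skeletal muscle, stood at 1.30 and 1.22 TPM, a mean of 1.26 ± 0.0566. The level of Rbfox1 rested on 71 and 39 counts, with the deposited interval of its TPM from 0.93 to 1.71 in replicate 1 and from 0.79 to 1.70 in replicate 2 (the files do not state the level of that interval).

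Rbfox2 was higher than Rbfox1 by 4.12 and 4.41 on the log2 scale of TPM, a mean of 4.27 ± 0.204 or 19.2-fold. This was the widest ratio among the 7 pairs compared. Its size moved with the scale, to 3.48 with 1 added to each TPM and to 6.17 with counts not corrected for length, and Rbfox2 was higher under each. Rbfox3, a marker of mature neurons, stood at 0.50 and 1.00 TPM.

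The RBFOX genes are alike in sequence, and how reads were divided between them was not tested. Of their coding internal exons, 5 pairs had the same length and at least 70% identical bases. The closest, a 93-base exon of the RNA-binding domain, had 86 identical bases (92.5%) in Rbfox1 (chr16:7292185-7292277) and Rbfox2 (chr15:77105577-77105669). It is shown for both genes with the 7 bases that differ in capitals.
Rbfox1 93-base exon: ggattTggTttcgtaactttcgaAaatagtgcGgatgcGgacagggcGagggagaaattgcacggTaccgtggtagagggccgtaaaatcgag
Rbfox2 93-base exon: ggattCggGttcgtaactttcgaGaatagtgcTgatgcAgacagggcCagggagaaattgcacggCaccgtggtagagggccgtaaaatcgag

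MBNL proteins, the muscleblind family, are titrated by expanded repeats in myotonic dystrophy. Mbnl1 (ENSMUSG00000027763.9, chr3:60472830-60629750, plus strand) stood at 73.6 and 56.2 TPM, a mean of 64.9 ± 12.3. Mbnl2 (ENSMUSG00000022139.12, chr14:120275669-120431697, plus strand) stood at 42.2 and 49.8 TPM, a mean of 46.0 ± 5.39. Mbnl3, the third paralogue, known from placenta and muscle precursors, was well below both at 4.98 and 5.73 TPM.

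Mbnl1 was above Mbnl2 in both libraries by 0.80 and 0.17 on the log2 scale, a mean of 0.49 ± 0.445 or 1.40-fold. That order depended on which transcripts were counted. With protein-coding transcripts alone Mbnl1 came to 42.6 and 46.7 TPM. The ratio to Mbnl2 was then 0.01 and -0.09 on the log2 scale, on either side of 0, with a mean of -0.04. Both Mbnl2 transcripts are coding, so this choice left out transcripts of Mbnl1 alone. The coding exons of these genes are also alike. The 54-base exon had 46 identical bases (85.2%) between Mbnl1 and Mbnl2 (chr14:120395712-120395765), and the 36-base exon had 31 (86.1%). The 54-base pair is shown with the differing bases in capitals.
Mbnl1 54-base exon: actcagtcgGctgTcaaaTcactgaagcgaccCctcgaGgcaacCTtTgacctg
Mbnl2 54-base exon: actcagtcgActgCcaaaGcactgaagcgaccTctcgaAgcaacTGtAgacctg

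CELF proteins bind GU-rich RNA and oppose MBNL proteins on many muscle exons. Celf1 (ENSMUSG00000005506.12, chr2:90940382-91019497, plus strand) stood at 55.7 and 69.9 TPM, a mean of 62.8 ± 10.1. Celf2 (ENSMUSG00000002107.14, chr2:6539694-7509563, minus strand) stood at 36.7 and 39.9 TPM, a mean of 38.3 ± 2.23. Celf1 was higher than Celf2 in both libraries, by 0.60 and 0.81 on the log2 scale, a mean of 0.70 ± 0.148 or 1.63-fold, and their library values did not overlap.

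Celf1 and Mbnl1, which are often set against each other, could not be ordered. Mbnl1 was the higher of the pair in replicate 1, with a log2 ratio of 0.40, and the lower in replicate 2, with a log2 ratio of -0.32. The remaining CELF genes are known mainly from the nervous system and were low: Celf3 stood at 0.66 and 0.43 TPM and Celf4 at 1.77 and 1.74 TPM. Celf5 was at 0.15 and 0.23 TPM, on 9 and 7 counts. Celf6 was at 0.05 and 0.17 TPM, on 4 and 9 counts, which is too few to order the libraries.

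Qk (ENSMUSG00000062078.10, chr17:10202601-10319854, minus strand), the gene of quaking, a STAR-domain protein needed for vessel formation in the embryo and active in muscle splicing, stood at 45.7 and 41.9 TPM, a mean of 43.8 ± 2.73. Endothelial markers were present (4 of 4 above 10 TPM in each library, summed level 133 and 166 TPM), and their part in the level of Qk was not tested.

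Ptbp1 (ENSMUSG00000006498.12, chr10:79854427-79864771, plus strand), the polypyrimidine tract binding protein, was the highest of the 10 genes at 82.1 and 83.2 TPM, a mean of 82.6 ± 0.714. Its relative Ptbp2, best known from neurons and testis, stood at 31.5 and 37.9 TPM, and Ptbp3, known from blood cells, at 33.99 and 36.98 TPM. Ptbp1 exceeded Ptbp2 by 1.38 and 1.13 on the log2 scale, a mean of 1.26 ± 0.177 or 2.39-fold, without overlap. Counts not corrected for length gave 0.96.

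Ordered by mean TPM, the 10 genes ran Ptbp1, Mbnl1, Celf1, Mbnl2, Qk, Celf2, Rbm24, Rbfox2, Rbm20 and Rbfox1. Of the 9 neighbours in this order, 6 were apart, meaning that the lower library value of the higher gene exceeded the higher library value of the lower gene. The 3 neighbours that overlapped were Mbnl1 and Celf1, Mbnl2 and Qk, and Celf2 and Rbm24. Among protein-coding genes, the levels of the first 9 ranked from the 93.1 percentile (Ptbp1) to the 74.2 percentile (Rbm20), and that of Rbfox1 at the 44.0 percentile. Summed over the 10 genes the level was 413 TPM in replicate 1 and 428 TPM in replicate 2.

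Reads of genes that overlap a regulator could be shared with it, because the strand setting of the counting is not given in the sources used here. Ptbp1 was the most exposed. Its 4 overlapping genes held 990 and 705 counts, 15.9% of the counts of Ptbp1, and most of these were in Plppr3 on the opposite strand (683 and 542 counts). For Celf2, the 7 overlapping genes held 7.33% of its counts. The share was at most 1.41% for each of the other 8 genes, and Rbm24, Celf1 and Qk had no overlapping gene.

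The libraries were compared gene by gene from expected counts scaled by the TMM method, as the log2 ratio of replicate 1 to replicate 2 with an exact 95% interval that covers counting error only. None of the 10 genes differed by 2-fold or more, against 6.08% of the 16621 mouse genes with a summed count of 20 or more. At 1.5-fold the count of the 10 was also 0, against 14.5%. With 2 libraries this compares those libraries and no condition. The median absolute log2 ratio was 0.16 for the 10 genes, 0.19 for all genes tested, and 0.12 for the 8627 tested genes with a summed count of 1000 or more.

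The largest difference was that of Rbm20, with 2238 and 2306 counts and a log2 ratio of -0.50 (interval -0.58 to -0.41), lower in replicate 1. Among the genes whose interval did not cross 0, Celf1 followed with 6858 and 6317 counts and a log2 ratio of -0.34 (-0.39 to -0.29). Rbfox1 had a log2 ratio of 0.40, but its interval of -0.17 to 1.01 crossed 0. In all, 6 intervals lay to one side of 0 and 4 crossed it: those of Ptbp1, Celf2, Rbm24 and Rbfox1. The 6 were Rbm20, Celf1, Mbnl2 (-0.19), Rbfox2 (-0.15), Mbnl1 (0.09) and Qk (0.17).

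At 2-fold, the libraries differed in 1 marker list. All 3 liver and yolk sac markers (Afp, Alb, Apoa1) were over 2-fold higher in replicate 1, with a summed level of 138 against 22.9 TPM. Of all genes tested, 6.08% were past 2-fold in either direction. None of the 7 cardiomyocyte markers differed by 2-fold, and their summed level was 23842 and 25909 TPM. Smaller shifts were seen in other lists. All 5 erythroid markers were higher in replicate 1, with log2 ratios from 0.19 to 0.41. All 4 endothelial markers were lower in replicate 1, from -0.10 to -0.53. Of the cardiomyocyte markers, Myh6 stood at -0.47 and Myh7 at -0.31, and the others between -0.09 and 0.06. Whether the makeup of the pools differed, or bears on the differences of Rbm20 or Celf1, was not tested.

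**Figure D2:**
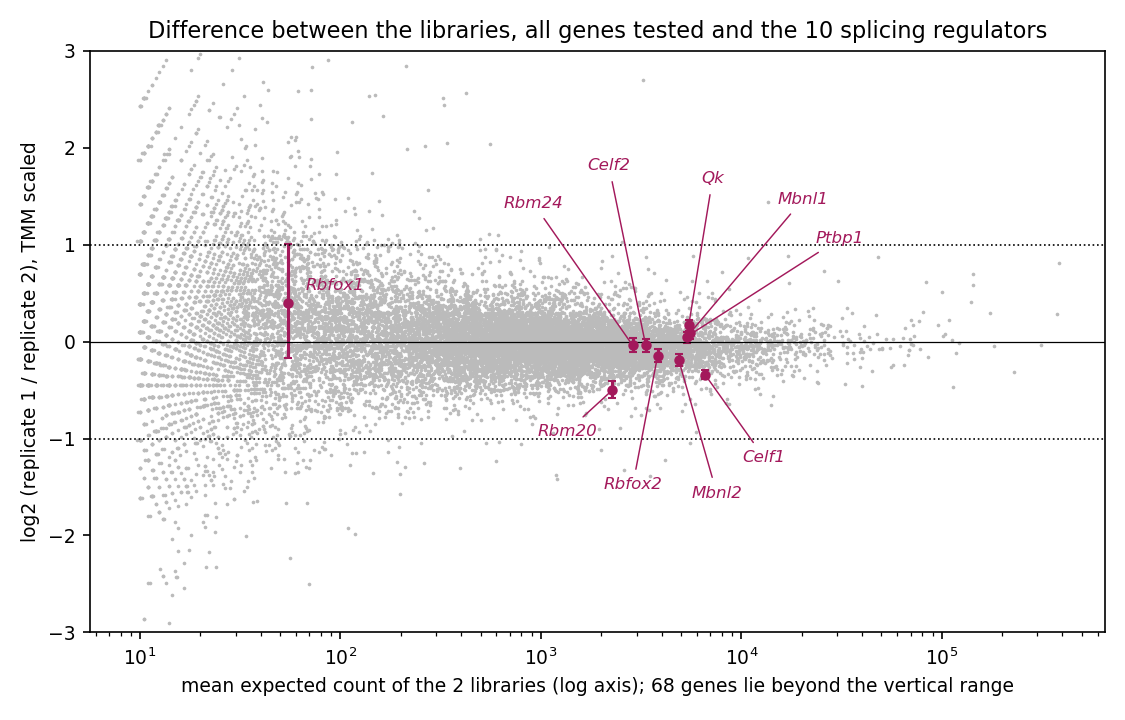
Log2 ratio of replicate 1 to replicate 2 (vertical, TMM scaled) against the mean expected count (horizontal, log axis) for each gene tested (grey) and the 10 splicing regulators (purple, bars are 95% exact intervals of the counting error); dotted lines mark a 2-fold difference. All 10 lie between the dotted lines, with Rbm20 lowest at -0.50 and Rbfox1 highest at 0.40 with the widest interval.

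Transcript tables gave the percent of each gene's abundance in each annotated transcript, as estimated by the authors' model and not from junction reads. The 10 genes had 98 transcripts, from 1 for Rbm24 to 28 for Celf2. Of the 9 genes with more than 1, 7 had the same leading transcript in both libraries, against 89.4% of 8921 protein-coding genes with 2 or more transcripts and 1 TPM or more. For 5 of 9 the leading transcript held 50% or more in both libraries, against 70.5%. The exceptions to a shared leader were Mbnl1 and Celf2.

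**Figure D3:**
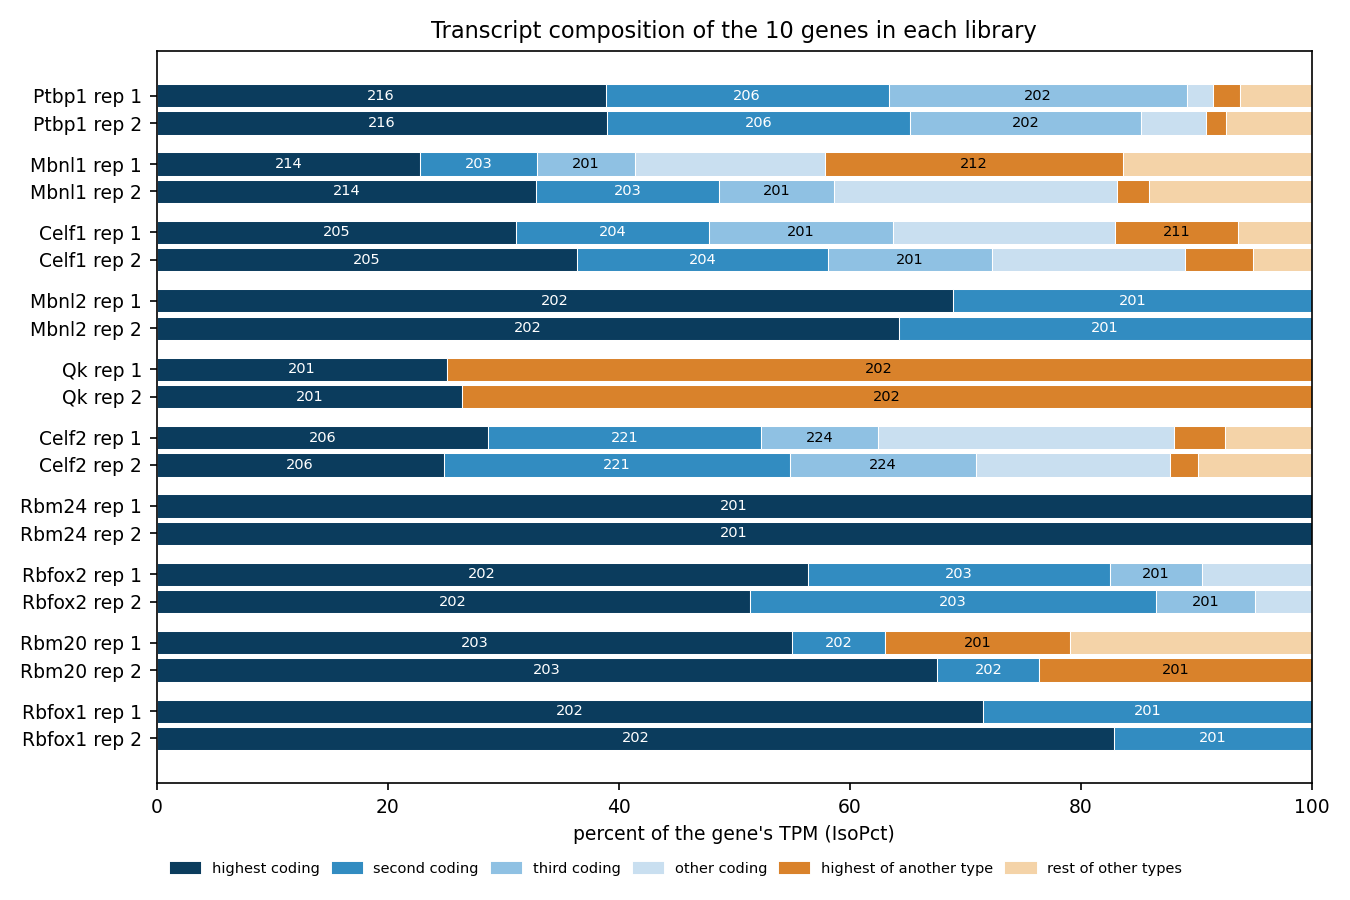
Percent of each gene's TPM (horizontal) in its annotated transcripts, for replicate 1 (upper bar) and replicate 2 (lower bar) of each gene; blue shades are protein-coding transcripts, orange shades are transcripts of other annotated types, and the numbers are the transcript numbers of the gene. The bars of Mbnl1 differ most through Mbnl1-212 (25.7% and 2.83%), and those of Rbm20 through a model seen in replicate 1 alone (20.9%).

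Mbnl1 had the largest shift between the libraries. Mbnl1-212, a processed transcript of 1019 bases without a coding annotation, held 25.7% of Mbnl1 in replicate 1 (497 counts, 18.9 TPM, deposited interval 14.8 to 21.7) and 2.83% in replicate 2 (29 counts, 1.59 TPM). The coding Mbnl1-214 held 22.8% and 32.8%, Mbnl1-203 held 10.1% and 15.8%, and all coding transcripts together 57.9% and 83.1%. Without Mbnl1-212, a choice made after its values were seen, Mbnl1 stood at 54.6 TPM in both libraries, and its log2 ratio of counts between libraries was -0.02 (interval -0.07 to 0.04) in place of 0.09. By comparison, the 5151 bases of Mbnl1-214 needed 2421 counts for 16.8 TPM in replicate 1. Leaving out the short Mbnl1-212, with its few counts, thus removed the 1.31-fold gap in the TPM of Mbnl1. It was picked as the transcript that differed most, so that outcome was partly built in. Other transcripts also shifted, such as Mbnl1-225 (6.49 and 3.88 TPM) and Mbnl1-218 (1.82 and 3.39 TPM).

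Rbm20 showed a similar split with the opposite result. Rbm20-203, coding, led with 55.0% and 67.6%, and Rbm20-201, annotated as a target of nonsense-mediated decay, held 16.0% and 23.6%. A model of 2529 bases that is not in M21 (ENSMUST00000095969.5) held 20.9% in replicate 1, on 235 counts, and was listed at 0 in replicate 2. Without that model, chosen after its values were seen, Rbm20 stood at 12.8 and 20.8 TPM and its log2 ratio between libraries went from -0.50 to -0.66 (-0.74 to -0.57), further from 0.

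In the other genes the composition was closer between the libraries. Ptbp1-216 held 38.9% and 39.0% of Ptbp1, Ptbp1-206 held 24.5% and 26.2%, and Ptbp1-202 held 25.8% and 20.0%. Celf1 was divided over 4 coding transcripts, Celf1-205 (31.1% and 36.4%), Celf1-204 (16.7% and 21.7%), Celf1-201 (15.9% and 14.2%) and Celf1-203 (16.3% and 12.2%). In Celf2 the coding transcripts Celf2-206 (28.7% and 24.8%) and Celf2-221 (23.7% and 30%) changed places as leader, and Celf2-224 held 10.1% and 16.1%.

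The genes with few annotated transcripts had clear leaders. Mbnl2-202 held 68.9% and 64.2% of Mbnl2, and Mbnl2-201 held 31.1% and 35.8%. Rbm24-201, the single annotated transcript of Rbm24, held 100%. Rbfox2-202 held 56.4% and 51.3% of Rbfox2, with Rbfox2-203 at 26.2% and 35.2%. For Rbfox1, Rbfox1-202 held 71.6% and 82.9%, on 29 and 22 counts, and Rbfox1-201 held 28.5% and 17.1%, on 42 and 17 counts, so that these shares are imprecise. Qk-202 held 74.9% and 73.5% of Qk and Qk-201 held 25.1% and 26.5%. M21 lists Qk-202 as a target of nonsense-mediated decay, but gives it 5832 bases where the files have 4658, so that type may not apply to the model that was counted.

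Inclusion of single exons was derived by summing TPM over the transcripts that span an exon and taking the percent in transcripts with exactly that exon. This could be done for Mbnl1, Celf1, Celf2 and Ptbp1, in which every transcript had the same length in the files and in M21. It was not done for Rbm20, Rbm24, Rbfox1, Rbfox2, Mbnl2 and Qk, where at least 1 transcript model differed. Among the 4 genes, 19 internal exons were used at 10 to 90% in both libraries: 6 in Mbnl1, 6 in Celf1, 4 in Celf2 and 3 in Ptbp1.

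**Figure D4:**
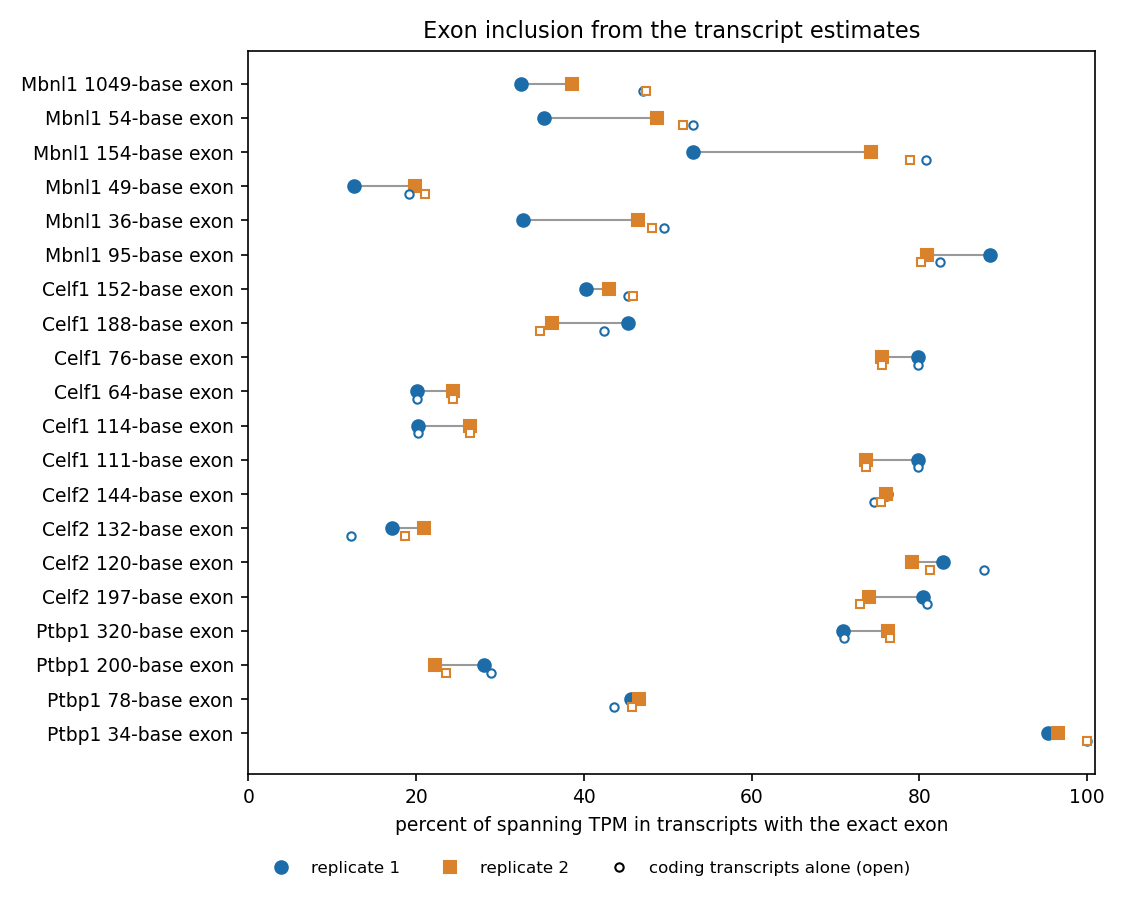
Percent of the TPM spanning an exon that lies in transcripts with exactly that exon, for replicate 1 (blue circle) and replicate 2 (orange square); open symbols just below repeat the values with protein-coding transcripts alone. The gaps of the 54-base, 36-base and 154-base exons of Mbnl1, up to 21.2 percentage points, are wider than any outside Mbnl1 (at most 9.06). The open symbols of the Mbnl1 exons lie close together.

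In Mbnl1, the 54-base exon shown above was included at 35.2% and 48.8%, and the 36-base exon at 32.7% and 46.4%. Both were higher in replicate 2, by more than 10 percentage points. With protein-coding transcripts alone the 54-base exon came to 52.97% and 51.8% and the 36-base exon to 49.6% and 48.2%, so the libraries were then within 2 percentage points of each other. The 154-base exon that follows the 54-base exon stood at 53.04% and 74.26%, and at 80.8% and 78.9% in coding transcripts. Its 49-base form, which starts later, held 12.6% and 19.8%.

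The 95-base exon of Mbnl1 was kept at 88.4% and 80.9%. A 1049-base exon near the start of the gene (chr3:60528756-60529804), which is coding only in part, stood at 32.6% and 38.5%. The 3 exons with a gap of 10 percentage points or more between libraries were all in Mbnl1: those of 54, 36 and 154 bases.

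In Ptbp1, the 78-base linker exon was included at 45.6% and 46.6%, a mean of 46.1% ± 0.685, so that the forms with and without it were near balance in both libraries. The 34-base exon, whose skipping is known to send the Ptbp1 transcript to decay, was included at 95.4% and 96.6%, a mean of 96.0% ± 0.844, and skipped in 2.18% and 1.51%. An exon with alternative starts upstream was used in its 320-base form at 70.9% and 76.2% and in its 200-base form at 28.1% and 22.3%.

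The matching 34-base exon of Ptbp2 shares 26 of 34 bases with that of Ptbp1 (76.5%). Its inclusion stood at 100%, but the annotation of the files holds only 1 transcript that spans it, so skipping could not have been seen.

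In Celf1, the 76-base exon in the form with the 12 optional bases shown above held 79.9% and 75.6%, and the 64-base form 20.1% and 24.4%. The neighbouring exon was used mainly in its 111-base form (79.8% and 73.6%), and the 114-base form with 3 further bases at its start held 20.2% and 26.4%. An exon of 152 bases near the start of the gene was included at 40.27% and 42.97%. The 188-base form of an early coding exon held 45.3% and 36.2%, the widest gap outside Mbnl1, and the rest used another boundary.

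Celf2 showed the same kind of choice at the other end of an exon. The 132-base form, with the 12 optional bases at its end, held 17.1% and 20.9%, and the 120-base form 82.9% and 79.1%. The 144-base exon of Celf2 was included at 76.05% in both libraries and skipped in 24.0%. The 197-base form of another exon held 80.5% and 74.0%, and the rest (19.5% and 26.0%) used another boundary. The coding 144-base exon has a counterpart of the same length in Celf1 with 120 identical bases (83.3%).

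Other regulators of tissue-restricted splicing gave a frame for these levels. Of a list of 18, 11 reached 1 TPM in both libraries and 9 reached 10 TPM, with a median of 14.5 TPM. For all protein-coding genes the shares were 56.4% and 34.5%, and the median was 2.96 TPM. The 4 highest were Rbpms, a smooth muscle splicing regulator (191 and 177 TPM), its relative Rbpms2, known from the heart (109 and 117 TPM), Tia1, which promotes use of weak splice sites (92.6 and 95.2 TPM), and Khdrbs1, the gene of Sam68 (53.6 and 61.4 TPM). Smooth muscle markers were present as well (4 of 4 at 1 TPM or more, summed level 1552 and 1720 TPM, most of it Acta2 at 1177 and 1290 TPM, with Myh11 at 1.30 and 1.00 TPM), and their part in the level of Rbpms was not tested.

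The lowest were regulators of epithelial and neuronal splicing. Esrp1, the epithelial regulator, stood at 0.51 and 0.38 TPM. Of the neuronal regulators, Khdrbs2 stood at 0.77 and 0.71 TPM, Nova2 at 0.97 and 0.86 TPM, and Srrm4 at 0.51 and 1.06 TPM. Nova1 (1.49 and 0.98 TPM), Esrp2 (0.98 and 1.03 TPM) and Rbm47 (1.27 and 0.79 TPM) each fell short of 1 TPM in a single library. Srrm4 was the only 1 of the 18 to differ by 2-fold between the libraries, against 6.08% of all genes tested. Neuronal markers were low but present (4 of 5 at 1 TPM or more, summed level 26.9 and 28.3 TPM, with Elavl3 at 0.14 and 0.17 TPM), and their part in the low levels of the neuronal regulators, of Rbfox1 and of Rbfox3 was not tested. Of the leukocyte markers 3 of 6 reached 1 TPM, and Cd3e was listed at 0 in both libraries.

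Known muscle targets of the 10 regulators were present almost throughout. Of 30 listed, 29 reached 1 TPM in both libraries and 25 reached 10 TPM, with a median of 31.5 TPM. Of all protein-coding genes 56.4% and 34.5% did, with a median of 2.96 TPM. The list was chosen for known muscle targets, so the difference describes the choice and was not tested. The 4 highest were Tpm1, alpha-tropomyosin (3746 and 3662 TPM), Tnnt2, cardiac troponin T (2901 and 2894 TPM), Pkm, pyruvate kinase and a target of PTBP1 (1042 and 1268 TPM), and Ttn, titin and the main target of RBM20 (441 and 278 TPM). The only target below 1 TPM was Clcn1, the skeletal muscle chloride channel and an MBNL target (0.60 and 0.41 TPM). Skeletal muscle markers were mixed, with Acta1 at 409 and 429 TPM and the others far lower. Ckm stood at 6.67 and 8.12 TPM and Myog at 2.74 and 3.09 TPM. Myod1 was at 1.14 and 0.65 TPM and Myh3 at 0.42 and 0.33 TPM. Tjp1 was the only 1 of the 30 targets past 2-fold between libraries, at 8.93 and 23.4 TPM, against 6.08% of all genes tested.

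The fetal exon of Tnnt2 could be read from the same tables. The 30-base exon shown above was included at 86.2% and 85.4%, a mean of 85.8% ± 0.599, skipped in 6.61% and 6.67%, and present with another boundary in the remainder. In protein-coding transcripts alone it stood at 87.0% and 86.4%. The libraries differed by less than 1 percentage point, and both kept the exon in most Tnnt2 RNA.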

How the data were processed

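The files of 2 libraries of 1 group were used: a gene table and a transcript table each. Per the file headers, the authors deposited expected counts (estimated reads, not normalized), TPM, FPKM (read, not used), posterior means, TPM interval bounds and, for transcripts, the percent of the gene's abundance. The texts deposited beside them name mm10 and the M4 annotation. Aligner, quantifier, versions and strand setting were not given in the sources used here. Of 43346 mouse gene rows, 42462 (98.0%) matched GENCODE M21 by identifier for names, types, coordinates and exons. Of the 98 transcripts of the 10 genes, 88 had the same length in M21, 9 another length, and 1 was absent.

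Expected counts summed to 37617442 and 27642765, of which mouse genes held 34447169 and 25261719. A limit of 3 counts is 0.0871 and 0.119 CPM. Counts were rounded, 0.5 was added, and ratios were scaled by TMM (edgeR 4.0.16, R 4.3.3) fitted over all mouse gene rows, with Clopper-Pearson 95% intervals (scipy 1.17.1). Genes with a summed count of 20 or more were counted as tested. PCR copies are not independent molecules, so intervals cover counting error only. With n = 2, the smallest exact two-sided sign-flip p is 0.5, so levels were described as values, mean and SD. Nothing shows whether the pools are separate litters, so the spread may be technical.

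The members, lists and rules were chosen with earlier results of these data known. Named were all 10 genes and their listed relatives, and of the other lists the 4 highest, the lowest and those under 1 TPM. Among transcripts, the leading one and any at 10% or more in both libraries were named, and among exons those at 10 to 90% in both libraries and a few of known function. Tjp1 and the transcripts left out were named after their values were seen. Alternatives were DESeq2 1.42.0 size factors, total counts, posterior means, other thresholds, rescaled TPM, coding transcripts alone and each library alone.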

Additional observations from a re-analysis of the deposited data

How the results depend on the processing

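All 10 genes stayed at 1 TPM or more with posterior means, and 9 reached 5 and 10 TPM. Each library alone, and TPM rescaled over mouse genes, which raises every level, had to give 10 as well. The count past 2-fold between libraries was 0 under DESeq2 size factors, total counts and posterior mean counts, and 0 at a fold of 1.5. Dropping the filter on low counts could not change it, because all 10 genes pass that filter. The share of all genes past the fold was 14.5% at 1.5-fold and 23.9% without the filter. Rescaling TPM over mouse genes alone multiplied every level by 1.2, and over protein-coding genes that are neither globin nor mitochondrial by 1.53. Counts not corrected for length moved 5 log2 ratios beyond the spread of the libraries: Rbfox2 to Rbfox1 to 6.17, Celf1 to Celf2 to 1.00, Rbm24 to Rbm20 to 0.32, Ptbp1 to Ptbp2 to 0.96 and Rbm24 to Rbm38 to -0.76. Adding 1 to each TPM gave 3.48 for Rbfox2 to Rbfox1. Protein-coding transcripts alone gave 1.58 for Rbm24 to Rbm20. They took Mbnl1 to Mbnl2 to 0.01 and -0.09 (mean -0.04), on either side of 0. Mbnl1 to Celf1 went from a mean of 0.04 to -0.27 with coding transcripts and with uncorrected counts alike, within the spread of the libraries. Leaving out Mbnl1-212, chosen after seeing the data, turned the log2 ratio of Mbnl1 between libraries from 0.09 to -0.02. Mbnl1 to Mbnl2 was then 0.37 and 0.13. With either library left out, the median of the 10 genes ran from 39.6 to 40.9 TPM and that of the muscle targets from 31.0 to 33.7 TPM. For exon inclusion, 10 of 23 values moved beyond the spread of the libraries with coding transcripts alone. Among the 10 genes, low counts limit Rbfox1 most, with 71 and 39, and several of the listed relatives have fewer (Rbfox3 22 and 16, Celf3 50 and 23, Celf5 9 and 7, Celf6 4 and 9). No paired analysis was possible because there is 1 group.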
